A study of Mus musculus with 33 samples.

Results

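The genes described here are Pou5f1 (Oct4), Sox2, Klf4 and Myc, the 4 reprogramming factors known together as OSKM. They were picked out by symbol from a deposited table of 37973 mouse genes, by a rule that uses no measured value, although earlier results of these data were known when the 4 genes were proposed. All 4 had 1 row and passed the filter on low values in every comparison. OSKM are transcription factors that turn fibroblasts into pluripotent stem cells when expressed together. Pou5f1 and Sox2 encode a POU and an HMG-box protein that bind DNA side by side at enhancers of pluripotency genes and maintain each other's transcription in stem cells. Klf4 encodes a zinc-finger protein that works with them, while Myc dimerises with Max and drives genes of growth and ribosome production. In reprogramming cultures these genes are first supplied by a transgene, and the cell's own Pou5f1 and Sox2 become active late, in the cells that reach pluripotency.

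The study followed reprogramming of primary mouse embryonic fibroblasts (MEFs) that overexpressed Dppa2 and Dppa4, a pair of chromatin-associated proteins, against cells with a control vector. The MEFs came from embryos of 14 to 15 dpc and were given their vectors by lentivirus. They were kept in medium with serum and ESGRO and given 1 μg/ml doxycycline for 2, 4, 8, 11 or 14 days. OSKM cells of both arms had the genotype Col1a1-OSKM+/-; Rosa26-rtTA+/-; Oct4-GFP+/-, so control and Dppa2/4 cells alike carried a doxycycline-driven tetO cassette at Col1a1 holding Pou5f1, Klf4, Sox2 and Myc, the rtTA*M2 activator at the Rosa26 locus and a GFP reporter at the Pou5f1 locus. Cells were sorted by Thy1, a surface protein of fibroblasts, by SSEA1, a surface sugar gained on the way to pluripotency, and by the reporter. The gates were Thy1+SSEA1-, Thy1-SSEA1-, Thy1-SSEA1+, GFP+ and Thy1+SSEA1+, the last only for Dppa2/4 on days 2 and 4. By their titles, the Thy1 and SSEA1 gates of days 8 to 14 held GFP- cells. Those of days 2 and 4 name no reporter gate. The reporter at the Pou5f1 locus thus took part in setting every gate of days 8 to 14, so tests of Pou5f1 that use those days are not free of the sorting. Each combination of arm, day and gate with values had 1 library, 13 of them control and 17 Dppa2/4. A further 2 libraries, 1 per arm on day 2, were labelled rtTA-MEF with the genotype Rosa26-rtTA+/-; Oct4-GFP+/-, which lacks the cassette. The labels do not say which libraries came from separate transductions, so p-values measure only how alike the sampled days and gates were.

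Values are FPKM, fragments per kilobase of transcript scaled to library size, and changes are differences of log2(FPKM + 1). Dppa2/4 was compared with control within each of 13 strata, a stratum being 1 day and gate with a library of each arm. Gates were compared within an arm and day. Tests were limma's, with Benjamini-Hochberg adjusted p-values over all genes tested and 0.05 as the threshold, and the percentage of all tested genes that passed is given beside the first count for each comparison. FPKM joins cassette and endogenous transcripts under 1 symbol, so none of the values below can be assigned to either source.

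Sequencing depth implied by the smallest FPKM steps was 21.4 to 42.7 M fragments in OSKM libraries and 14.1 to 16.2 M in those labelled rtTA-MEF. Fibroblast markers had a median sum of 1833 FPKM in Thy1+SSEA1- and 34.1 in GFP+ cells, against 9.49 and 3796 for pluripotent markers. A library labelled Dppa2/4 day 4 Thy1+SSEA1- had 0.354 FPKM of Dppa2, within the control range of 0.149 to 0.527 for that gate, so its values are those of a library labelled Dppa2/4 without a raised Dppa2 level. Tests, ratios and correlations of the 4 factors that include it are given without it beside them, whereas gene lists and genes most like each factor include it throughout. The 2 libraries labelled rtTA-MEF, matched to their columns by elimination, both held reads of all 4 factors, at levels unlike each other. No other library lacks the cassette by its label, so none gives a level to set them against. Pou5f1 stood at 122 FPKM in the control and 1116 in the Dppa2/4 library, Sox2 at 4.02 and 30.9, Klf4 at 21.6 and 99.8, and Myc at 135 and 403. At these levels they were not used as a background without the transgene. By limma none of the 4 genes passed between the 5 OSKM libraries of day 2 and these 2 (adjusted p of 0.889 to 0.893, 0.0405% of genes passed). An unadjusted p under 0.05 was found for 0 of 4 and for 5.27% of all genes. With 2 unlike libraries on 1 side, the comparison does not show the levels to be alike.

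The 4 genes lie on different chromosomes of GRCm38. Pou5f1 (ENSMUSG00000024406) is at chr17:35506018-35510772 on the plus strand with 5 exons, Sox2 (ENSMUSG00000074637) at chr3:34650405-34652461 on the plus strand as 1 exon, Klf4 (ENSMUSG00000003032) at chr4:55527143-55532466 on the minus strand with 5 exons, and Myc (ENSMUSG00000022346) at chr15:61985391-61990374 on the plus strand with 3 exons. Coding sequence makes up 77.5% of the reference transcript of Pou5f1, 46.5% of that of Sox2, 47.8% of that of Klf4 and 56.3% of that of Myc. FPKM divides by transcript length, so levels set between these genes would read low for the 3 with the smaller coding share wherever reads came from a cassette of coding sequences. The endogenous promoters, which the cassette does not use, are shown for the 3 genes with an entry in the RefSeq table (GRCm38.p6, 250 bases before the RefSeq start, 5′ to 3′ on the gene's strand). RefSeq starts are not those of the gene coordinates above, so the windows do not end where those genes begin. The Pou5f1 window ends inside the gene as given above. Capitals mark GGGCGG, the GC box bound by Sp/Klf proteins, and CACGTG, the E-box bound by Myc with Max, on either strand. Myc is named here without a sequence.
Pou5f1, chr17:35505782-35506031, plus strand: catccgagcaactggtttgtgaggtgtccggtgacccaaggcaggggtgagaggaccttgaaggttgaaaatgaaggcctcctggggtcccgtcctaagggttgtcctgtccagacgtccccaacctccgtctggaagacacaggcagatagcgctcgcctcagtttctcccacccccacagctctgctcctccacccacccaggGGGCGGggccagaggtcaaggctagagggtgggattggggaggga
Sox2, chr3:34649745-34649994, plus strand: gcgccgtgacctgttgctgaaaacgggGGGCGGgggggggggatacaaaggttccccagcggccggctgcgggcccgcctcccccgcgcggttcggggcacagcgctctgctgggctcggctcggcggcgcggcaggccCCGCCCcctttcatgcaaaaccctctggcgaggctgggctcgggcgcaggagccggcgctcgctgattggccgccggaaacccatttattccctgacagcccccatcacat
Klf4, chr4:55532476-55532725, minus strand: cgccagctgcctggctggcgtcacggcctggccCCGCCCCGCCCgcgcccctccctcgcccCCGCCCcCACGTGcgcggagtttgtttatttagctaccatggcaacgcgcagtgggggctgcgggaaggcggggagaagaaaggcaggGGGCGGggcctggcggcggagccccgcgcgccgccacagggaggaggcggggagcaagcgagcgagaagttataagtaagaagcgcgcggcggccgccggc
The Pou5f1 window held 1 GC box, the Sox2 window 2 and the Klf4 window 4, a pair of which overlap by 1 base, and Klf4 alone of the 3 held an E-box. Of 32851 promoter windows of this length, 32.7% held a GC box and 6.02% an E-box. The octamer ATGCAAAT, recognised by POU proteins, was in none of the 3 windows and in 1.6% of all.

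Pou5f1 had the highest FPKM of the 4 in every OSKM library and was never below 75.7 FPKM. In control Thy1+SSEA1- cells it was 336, 391, 409 and 213 FPKM on days 2, 4, 8 and 14, and in control Thy1-SSEA1- cells 94.9, 335, 382 and 339 on days 2, 4, 8 and 11. In control Thy1-SSEA1+ cells it was 789, 911 and 881 on days 8, 11 and 14, and in control GFP+ cells 1458 and 1838 on days 11 and 14. The SSEA1+ and GFP+ ranges of the control arm did not overlap each other or those of the SSEA1- gates. In the Dppa2/4 arm Pou5f1 was 327, 499.6, 276 and 78.3 FPKM in the Thy1+SSEA1- gate on days 2, 4, 8 and 14, the day 4 value being that of the library with Dppa2 at the control level, and 75.7, 251, 285, 95.8 and 78.6 in Thy1-SSEA1- cells of days 2 to 14. It was 491, 312 and 315 in Thy1-SSEA1+ cells of days 8, 11 and 14, and 1518, 1079 and 1264 in GFP+ cells of the same days. Its 3 Thy1-SSEA1+ values thus lay below all 3 of the control arm, while its lowest SSEA1- values were those of days 11 and 14 and of day 2 Thy1-SSEA1- cells.

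Sox2 had the widest span of the 4, from 1.61 to 237 FPKM. Control Thy1+SSEA1- cells had 7.45, 7.08, 12.1 and 7.12 FPKM on days 2, 4, 8 and 14, and control Thy1-SSEA1- cells 2.54, 4.75, 13.6 and 10.7 on days 2, 4, 8 and 11. Control Thy1-SSEA1+ cells had 69.2, 74.7 and 61.1 on days 8, 11 and 14, and control GFP+ cells 237 and 216 on days 11 and 14. Each of the last 2 gates stood apart from the rest of its arm. Dppa2/4 cells had 12.2, 10.6, 4.00 and 3.30 FPKM in Thy1+SSEA1- and 1.61, 5.03, 5.20, 9.43 and 6.28 in Thy1-SSEA1- cells over the same days, with day 14 added for the latter. The 10.6 is from the day 4 library with Dppa2 at the control level. They had 10.9, 28.4 and 32.3 in Thy1-SSEA1+ and 146, 234 and 185 in GFP+ cells on days 8, 11 and 14. Of these, the Thy1-SSEA1+ value of day 8 lay within the range of the SSEA1- gates of its arm, whereas the lowest control Thy1-SSEA1+ value was above every SSEA1- library.

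Klf4 varied least between gates. It was 27.2, 31.9, 40.4 and 24.6 FPKM in control Thy1+SSEA1- cells of days 2, 4, 8 and 14 and 21.5, 26.1, 32.6 and 25.0 in control Thy1-SSEA1- cells of days 2, 4, 8 and 11. It was 50.4, 61.8 and 30.8 in control Thy1-SSEA1+ cells of days 8, 11 and 14 and 96.9 and 66.3 in control GFP+ cells of days 11 and 14. The SSEA1+ range overlapped that of Thy1+SSEA1- cells. In the Dppa2/4 arm Klf4 was 40.3, 39.5, 23.3 and 9.21 in Thy1+SSEA1- cells and 23.9, 25.4, 21.2, 20.1 and 9.39 in Thy1-SSEA1- cells, the 39.5 being from the day 4 library with Dppa2 at the control level. It was 29.5, 21.3 and 10.6 in Thy1-SSEA1+ and 53.6, 82.9 and 47.1 in GFP+ cells. In this arm day 14 was the lowest library of every gate sampled on that day, at about 10 FPKM in 3 of them and 47.1 in GFP+ cells.

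Myc was the 1 factor whose median over a gate was lowest in GFP+ cells. Control Thy1+SSEA1- cells had 112, 107, 132 and 91.3 FPKM on days 2, 4, 8 and 14, and control Thy1-SSEA1- cells 43.5, 84.1, 114 and 81.0 on days 2, 4, 8 and 11. Control Thy1-SSEA1+ cells had 116, 128 and 57.5 on days 8, 11 and 14, inside the range of the SSEA1- gates, and control GFP+ cells 31.1 and 22.8 on days 11 and 14, below all other control libraries. Dppa2/4 cells had 199, 147, 78.9 and 35.2 in Thy1+SSEA1- and 37.8, 71.1, 75.5, 40.5 and 23.4 in Thy1-SSEA1- cells, where 147 is the value of the day 4 library with Dppa2 at the control level. They had 110, 52.6 and 13.9 in Thy1-SSEA1+ and 44.3, 23.6 and 11.2 in GFP+ cells. In this arm the GFP+ values overlapped those of day 14 in the other gates. In the Thy1+SSEA1+ gate, sorted in the Dppa2/4 arm alone, Pou5f1 was 522 and 186, Sox2 13.2 and 5.44, Klf4 53.6 and 19.3 and Myc 189 and 118 FPKM on days 2 and 4, the day 2 library having more of each.

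**Figure D1:**
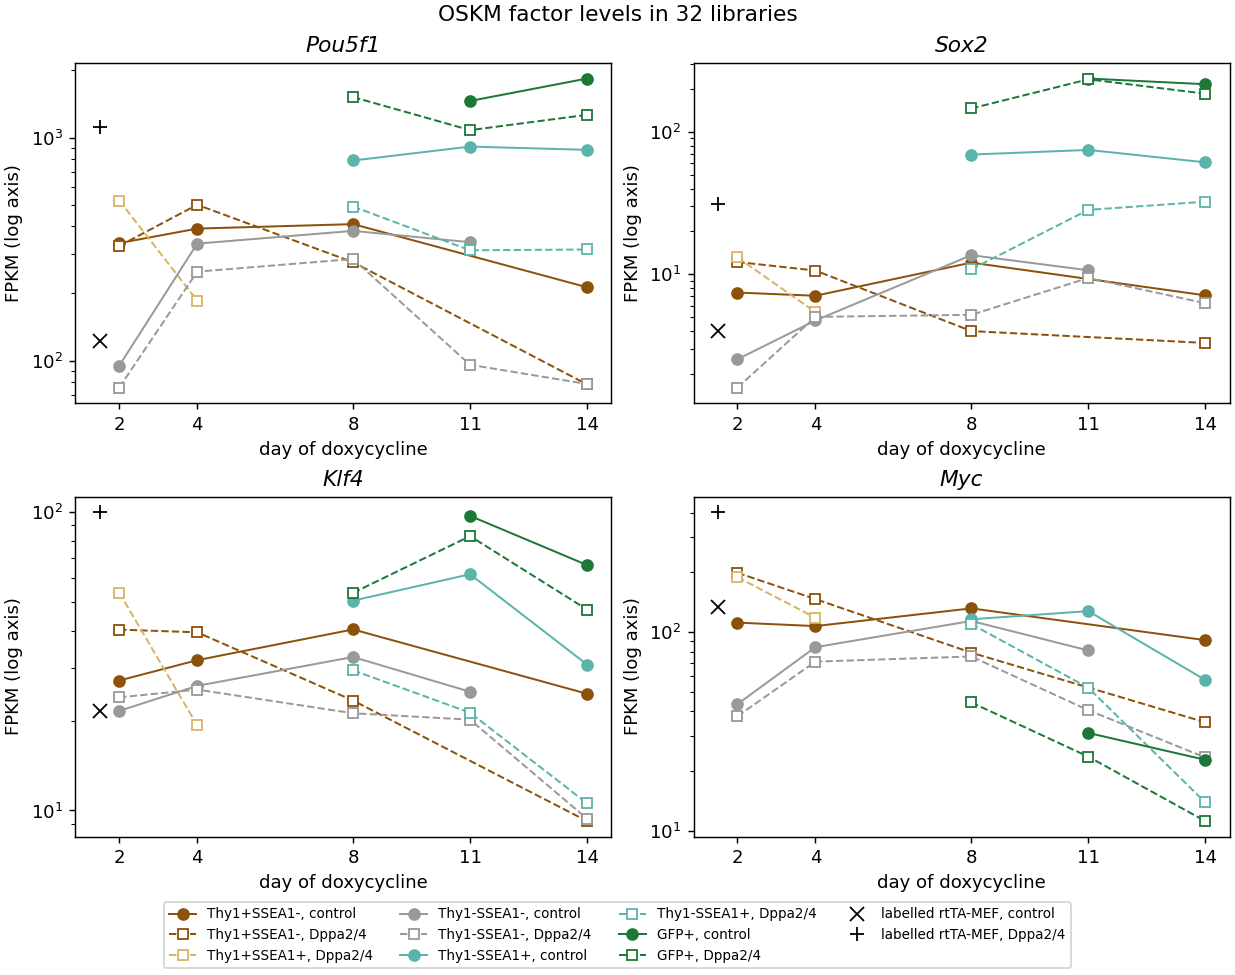
FPKM (log axis) of each factor against the day of doxycycline in 32 libraries, with colour for the gate, filled circles and solid lines for control, open squares and dashed lines for Dppa2/4, and black marks, drawn just left of day 2, for the libraries labelled rtTA-MEF. Among the gates of the OSKM libraries the medians of Pou5f1, Sox2 and Klf4 are highest in GFP+ cells, where Myc is at 11.2 to 44.3 FPKM.

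Between the Thy1+SSEA1- and Thy1-SSEA1- gates, 7 pairs, none of the 4 factors changed by the test. Thy1-SSEA1- cells differed by -0.74 for Pou5f1, -0.54 for Sox2, -0.34 for Klf4 and -0.85 for Myc, with adjusted p of 0.439, 0.687, 0.321 and 0.299 by limma. Pou5f1, Klf4 and Myc had an unadjusted p under 0.05, as did 10.4% of all genes, and only 0.0259% of genes passed in this comparison. Myc was lower in Thy1-SSEA1- cells in 7 of 7 pairs and Klf4 in 6 of 7. Without the day 4 library labelled Dppa2/4 whose Dppa2 was at the control level the differences were -0.70, -0.48, -0.29 and -0.82, with adjusted p of 0.458 to 0.733.

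Pou5f1 and Sox2 rose from Thy1-SSEA1- to Thy1-SSEA1+ cells, 5 pairs. Pou5f1 had a mean of 564 FPKM in Thy1-SSEA1+ cells and rose by 1.39 (SE 0.19, adjusted p = 0.00696), and Sox2 had a mean of 43.1 and rose by 1.92 (SE 0.26, adjusted p = 0.00671), each in 5 of 5 pairs. That is 2.61-fold and 3.78-fold on the log2(FPKM + 1) scale, where 9.55% of all genes rose and 12.4% fell. Klf4 differed by 0.51 (SE 0.19, adjusted p = 0.102) and Myc by 0.17 (SE 0.21, adjusted p = 0.585). Against Thy1+SSEA1- cells, 4 pairs, the same 2 genes passed, Pou5f1 with a rise of 1.45 (SE 0.27, adjusted p = 0.0186) and Sox2 with a rise of 2.39 (SE 0.32, adjusted p = 0.0116), while 10.6% of genes rose and 13.5% fell. Without the day 14 control pair the adjusted p of Pou5f1 was 0.0553. In that comparison Klf4 differed by 0.28 (adjusted p = 0.215) and Myc by -0.41 (adjusted p = 0.329).

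From Thy1-SSEA1+ to GFP+ cells, 5 pairs, Sox2 and Klf4 rose and Myc fell. Sox2 went from a mean of 41.5 to 204 FPKM, a rise of 2.51 (SE 0.30, adjusted p = 0.00184), and Klf4 from 30.8 to 69.4, a rise of 1.31 (SE 0.24, adjusted p = 0.0063). Myc went from 72.4 to 26.6 FPKM and fell by 1.20 (SE 0.23, adjusted p = 0.00736). Each of the 3 had its direction in 5 of 5 pairs, beside 19.5% of all genes that rose and 25.9% that fell. The reporter that set this gate sits at the Pou5f1 locus, so Pou5f1 is given as a description: 582 FPKM in Thy1-SSEA1+ and 1431 in GFP+ cells, higher in 5 of 5 pairs. Within the pairs, the ratio of Sox2 in GFP+ to Thy1-SSEA1+ cells was 3.17 and 3.53 for control and, on days 8, 11 and 14, 13.4, 8.24 and 5.73 for Dppa2/4. That of Pou5f1 was 1.60 and 2.09 in control and 3.09, 3.45 and 4.01 in Dppa2/4 cells. Whether these ratios differed between arms was not tested. Fibroblast markers fell (7 of 7) and pluripotent markers rose (6 of 6) with both gate steps, and of 3 epithelial markers 2 rose to Thy1-SSEA1+ and 2 fell to GFP+ cells. Pecam1, an endothelial marker, rose in both steps, by 0.96 and 2.56, while Cdh5 and Kdr were under 0.1 FPKM in all GFP+ libraries. Des of the muscle list and Tubb3 of the neural list rose to GFP+ cells. The part of these genes in the changes of the 4 factors was not tested. Bulk libraries cannot tell fewer cells of a type from less RNA per cell.

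**Figure D2:**
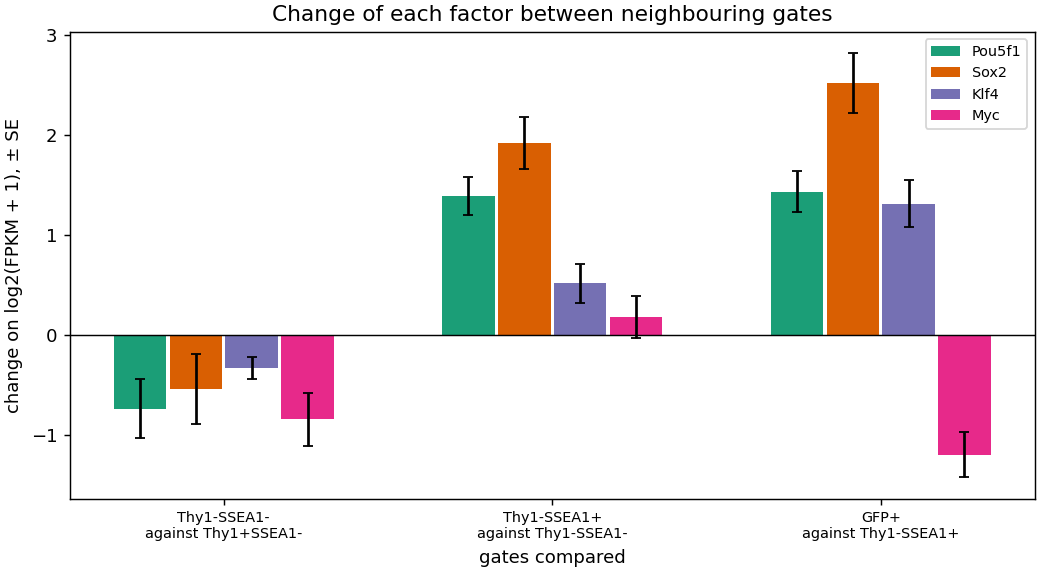
Change on the log2(FPKM + 1) scale, with its SE, of each factor between neighbouring gates, from 7, 5 and 5 pairs of libraries of the same arm and day. Myc is the 1 factor below 0 in GFP+ against Thy1-SSEA1+ cells, at -1.20, where Pou5f1 is a description because the reporter set the gate.

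Within a library, the balance of the 4 factors was unlike between gates. These ratios of FPKM are free of differences in total depth, but hold the length effect given above. Per unit of Pou5f1, Sox2 had a median of 0.0258 in Thy1+SSEA1-, 0.0267 in Thy1-SSEA1-, 0.0849 in Thy1-SSEA1+ and 0.147 in GFP+ cells. Its ranges of 0.0142 to 0.0985 in Thy1-SSEA1- and 0.0221 to 0.103 in Thy1-SSEA1+ cells overlapped, and each reached just past the lowest GFP+ value of 0.0962. Myc per unit of Pou5f1 went the other way, with medians of 0.327, 0.298, 0.144 and 0.0213. The GFP+ range for Myc, 0.00887 to 0.0292, lay below every other library. Sox2 per unit of Klf4 had a median of 0.282 in Thy1+SSEA1- cells, with a range of 0.171 to 0.358, and 2.82 in GFP+ cells, with a range of 2.44 to 3.94. Myc per unit of Klf4 had medians of 3.72 and 0.321 in the same gates. Klf4 per unit of Pou5f1 had medians of 0.0916, 0.101, 0.062 and 0.0373 in the order above, and its ranges overlapped between the SSEA1- gates, between Thy1-SSEA1+ and GFP+ cells, and between GFP+ and Thy1-SSEA1- cells. Without the day 4 library labelled Dppa2/4 whose Dppa2 was at the control level, the Thy1+SSEA1- medians were 0.0295 for Sox2, 0.332 for Myc and 0.0987 for Klf4 per unit of Pou5f1, 0.29 for Sox2 per unit of Klf4 and 3.71 for Myc per unit of Klf4.

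**Figure D3:**
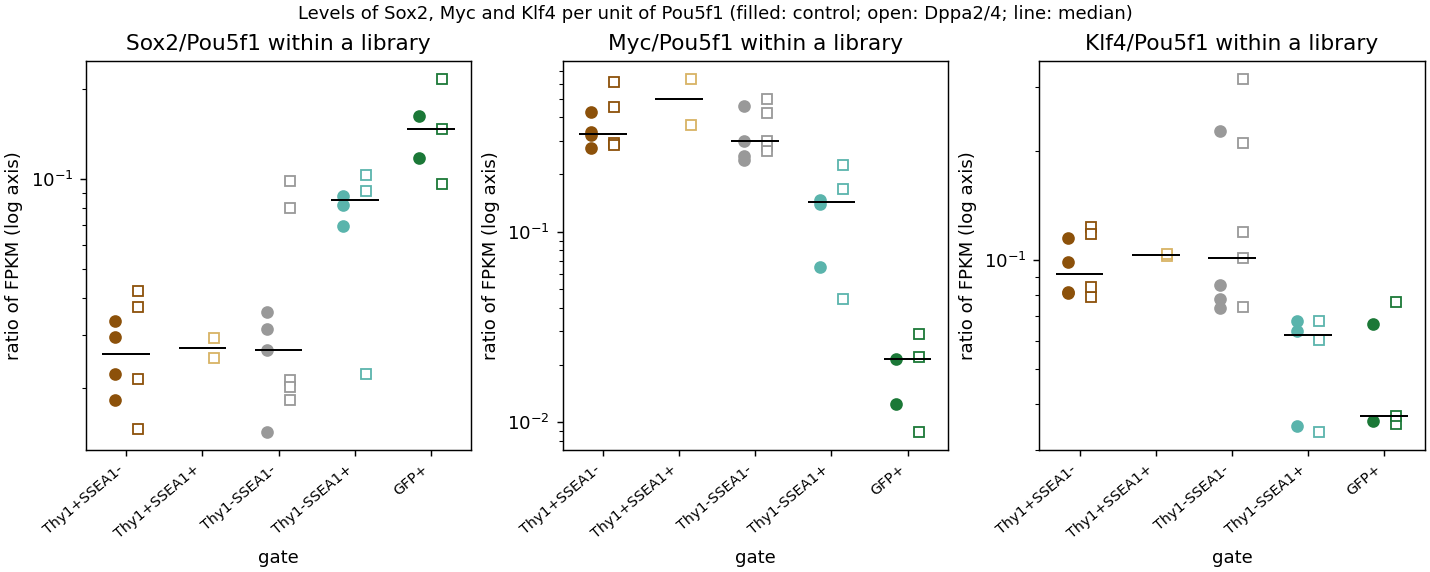
FPKM of Sox2, Myc and Klf4 divided by that of Pou5f1 in the same library (log axes) by gate, with filled circles for control, open squares for Dppa2/4 and a line at the gate's median. Medians for Sox2 go from 0.0258 in Thy1+SSEA1- to 0.147 in GFP+ cells, and those for Myc from 0.327 to 0.0213.

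How the 4 genes varied together also differed between gates, given as a description because the libraries share arms, days and gates. Over the 17 SSEA1- libraries, Pearson's r of log2(FPKM + 1) was 0.91 between Pou5f1 and Myc, 0.88 between Klf4 and Myc, 0.78 between Pou5f1 and Klf4 and 0.64 between Pou5f1 and Sox2. Over the 13 libraries that were SSEA1+ or GFP+, Thy1+SSEA1+ included, Pou5f1 and Sox2 had r = 0.89 and Pou5f1 and Klf4 r = 0.82, while Myc had r = -0.37 with Pou5f1 and -0.64 with Sox2. For Pou5f1 and Myc, r was -0.04 over all 30 and 0.60 over the 25 that were not GFP+. Without the day 4 library labelled Dppa2/4 whose Dppa2 was at the control level, the 4 SSEA1- values were 0.90, 0.87, 0.76 and 0.61 over 16 libraries, and that of Pou5f1 and Myc was -0.05 over 29 and 0.59 over 24.

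Dppa2/4 cells had less Pou5f1, Klf4 and Myc than control cells of the same day and gate. Pou5f1 had a mean of 411 FPKM in Dppa2/4 and 644 in control libraries and fell by 0.72, with an SE of 0.17, an adjusted p of 0.00806 and lower values in 12 of 13 strata. Myc fell by 0.57 (SE 0.19, adjusted p = 0.0456, 11 of 13) and Klf4 by 0.50 (SE 0.17, adjusted p = 0.0483, 10 of 13), while Sox2 differed by -0.61 (SE 0.23, adjusted p = 0.0661, 10 of 13). The count of 3 of 4 lower stands beside 7.75% of all genes lower and 15.6% higher. When the stratum of the library labelled Dppa2/4 day 4 Thy1+SSEA1- was left out, all 4 were lower, Pou5f1 by 0.81, Sox2 by 0.71 with an adjusted p of 0.0373, Klf4 by 0.56 and Myc by 0.66, with 8.9% of genes lower. The calls of Klf4 and Myc lay near the threshold. Klf4 passed when any 1 stratum of day 2 or 4 was left out and failed without any of the other 9, with adjusted p of 0.0226 to 0.0965. Myc passed without the Thy1+SSEA1- stratum of day 2 or of day 4 or the Thy1-SSEA1+ stratum of day 8, and failed without any of the other 10. The call of Pou5f1 held in all 13 and was lost when the stratum was not modelled (adjusted p = 0.454).

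On the later days the direction was the same throughout. In all 9 strata of days 8 to 14, each of the 4 factors was lower in Dppa2/4 than in control cells, as were 4.59% of all genes. The ratio of Dppa2/4 to control had a median of 0.622 for Pou5f1 (0.282 to 0.748), 0.464 for Sox2 (0.157 to 0.988), 0.585 for Klf4 (0.343 to 0.855) and 0.501 for Myc (0.242 to 0.946). In the 4 strata of days 2 and 4, Pou5f1 was lower in 3, Myc in 2, and Sox2 and Klf4 in 1 each, with median ratios of 0.885, 1.12, 1.28 and 1.17. Without the day 4 Thy1+SSEA1- stratum, whose Dppa2/4 library had Dppa2 at the control level, Pou5f1 was lower in 3 of 3, Myc in 2, and Sox2 and Klf4 in 1 each, with median ratios of 0.798, 0.869, 1.06 and 1.11. Day 2 Thy1+SSEA1- cells with Dppa2/4 had 1.78 times the Myc, 1.64 times the Sox2 and 1.48 times the Klf4 of control cells, and 0.971 times the Pou5f1. A fit of days 8 to 14 alone, chosen after the values were seen, gave changes of -0.99 for Pou5f1, -0.98 for Sox2, -0.82 for Klf4 and -0.92 for Myc, with adjusted p of 0.00453 to 0.0156, and 10.3% of genes lower.

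The difference in effect between late and early strata did not pass when tested itself. It was -0.88 for Pou5f1 (SE 0.29, adjusted p = 0.157), -1.18 for Sox2 (SE 0.40, adjusted p = 0.166), -1.06 for Klf4 (SE 0.25, adjusted p = 0.11) and -1.13 for Myc (SE 0.31, adjusted p = 0.129). All 4 had an unadjusted p under 0.05, as did 19.1% of genes, and 0.0238% of genes passed. Without the day 8 Thy1-SSEA1+ stratum, Klf4 and Myc passed with adjusted p of 0.046 and 0.0412. Without the day 4 Thy1+SSEA1- stratum the differences were -0.73, -1.07, -1.04 and -1.05, with adjusted p of 0.232 to 0.29. Between SSEA1+ or GFP+ and SSEA1- strata the effect differed by -0.35 to -0.65, with adjusted p of 0.304 to 0.593, where 1.02% of genes passed. None of the 4 had an unadjusted p under 0.05 there, beside 18.9% of all genes. Without the day 4 Thy1+SSEA1- stratum this effect differed by -0.22 to -0.55 (adjusted p of 0.349 to 0.728). SSEA1+ and GFP+ strata exist from day 8 on, so gate and day overlap in these tests. Sorting by the reporter is also named in the titles only from day 8 on.

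**Figure D4:**
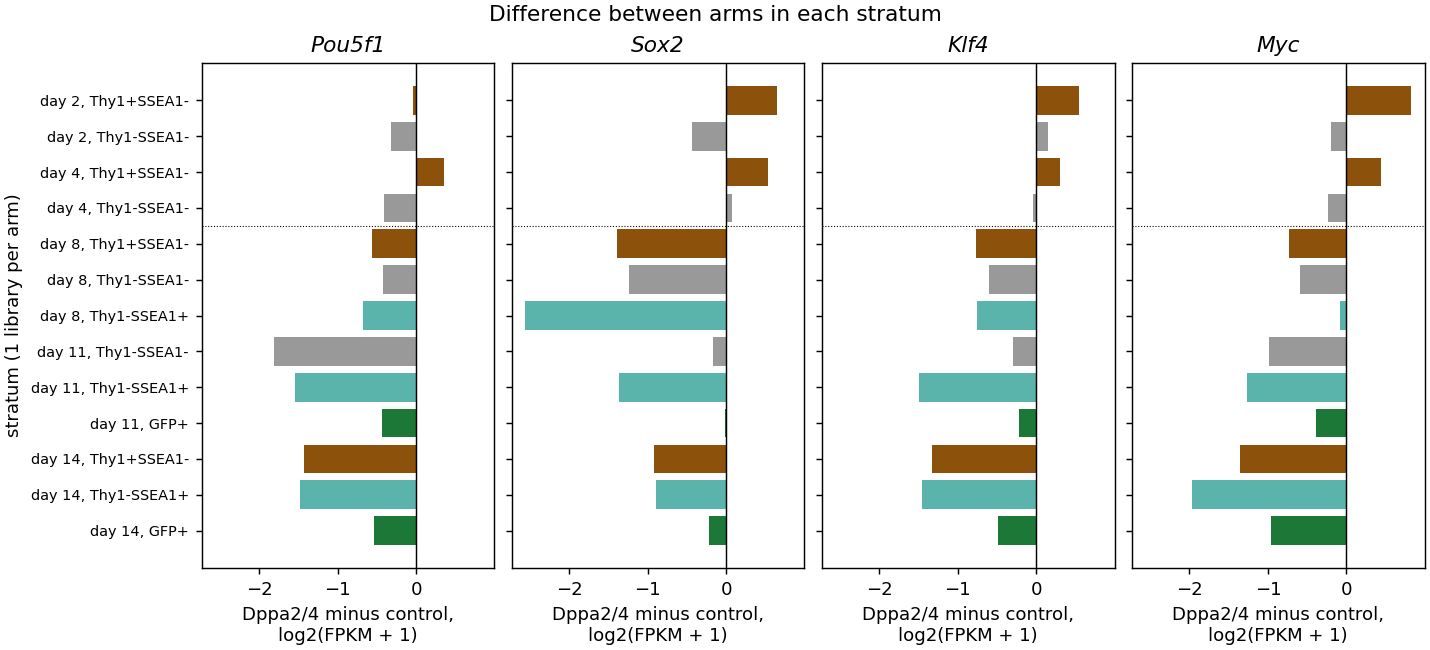
Difference of log2(FPKM + 1), Dppa2/4 minus control, for each factor in each of 13 strata with 1 library per arm, coloured by gate, with a dotted line between days 4 and 8. Below the line all bars point to lower levels in Dppa2/4 cells, from -0.02 for Sox2 in day 11 GFP+ cells to -2.57 for Sox2 in day 8 Thy1-SSEA1+ cells.

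In Thy1-SSEA1+ cells, 3 libraries per arm, 3 of the 4 factors were lower in Dppa2/4 cells with no overlap of the arms, as were 8.46% of all genes. The control and Dppa2/4 ranges did not overlap for Pou5f1 (789 to 911 against 312 to 491), Sox2 (61.1 to 74.7 against 10.9 to 32.3) or Klf4 (30.8 to 61.8 against 10.6 to 29.5), and overlapped for Myc. Pluripotent markers moved with the arm there, with overlapping sums of 742 to 1781 FPKM (median 808) in control and 236 to 864 (median 445) in Dppa2/4 libraries, and Nanog at 161 to 232 against 74.1 to 123. Their part in the lower factor levels was not tested. In the SSEA1- gates and in GFP+ cells the ranges of the arms over all their days overlapped for all 4 genes. For Pou5f1 in GFP+ cells the overlap came from the Dppa2/4 library of day 8, at 1518 FPKM, a day without a control GFP+ library. On days 11 and 14 Pou5f1 was 1079 and 1264 in Dppa2/4 and 1458 and 1838 in control GFP+ cells, without overlap, while the other 3 factors overlapped. Within the day 11 and 14 GFP+ strata the ratios of Dppa2/4 to control were 0.74 and 0.688 for Pou5f1, 0.988 and 0.858 for Sox2, 0.855 and 0.71 for Klf4 and 0.76 and 0.492 for Myc. The overexpressed genes themselves overlapped between the arms over all GFP+ libraries, the Dppa2/4 library of day 8 included. Dppa2 was 49.3 to 61.5 FPKM in Dppa2/4 and 45.4 to 66.1 in control GFP+ cells, and Dppa4 66.7 to 97.8 and 85.0 to 91.1.

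Markers of other cells moved with the arm in part. Col1a1, the collagen gene whose locus holds the cassette and 1 of 7 fibroblast markers, fell by 0.79 (SE 0.24, adjusted p = 0.0304), and the other 6 did not pass. The fibroblast sum had a median of 1172 FPKM (34.1 to 5134) in control and 727 (28.8 to 4581) in Dppa2/4 libraries. By gate, the control and Dppa2/4 medians were 2066 and 1092 in SSEA1- cells and 50.3 and 41.0 in GFP+ cells. In Thy1-SSEA1+ cells the order was reversed, with 110 (62.0 to 359) in control and 124 (109 to 280) in Dppa2/4 libraries. None of the 6 pluripotent markers passed. Of 3 epithelial markers Epcam and Ocln rose, with sums of 2.83 to 300.9 in control and 3.72 to 344 in Dppa2/4 libraries. Cdh1, the third, did not pass, and its median was lower with Dppa2/4 in each gate that both arms had. In Thy1-SSEA1+ cells that median was 124 FPKM in control and 109 in Dppa2/4 libraries. Cd68, Des and Gfap, from the immune, muscle and neural lists, passed as higher. Tubb3, the other neural gene measured, did not pass. It was 4.18 to 8.02 FPKM in control and 0.886 to 3.54 in Dppa2/4 Thy1-SSEA1+ cells, and lower with Dppa2/4 in GFP+ cells too. In both SSEA1- gates the Tubb3 median was higher with Dppa2/4. The sums of the immune, muscle and neural lists were 3.12 to 70.7, 0.205 to 33.1 and 0.496 to 9.53 FPKM in control libraries. In Dppa2/4 libraries they were 4.43 to 82.6, 0.757 to 33.8 and 0.504 to 87.3. Most of the 87.3 was Tubb3, at 81.1 FPKM in 1 Thy1+SSEA1- library. Ptprc and Cdh5 were under 0.1 FPKM in all Dppa2/4 libraries and Myog in all control libraries of these strata. The part of these genes in the lower OSKM levels was not tested. Gt(ROSA)26Sor, the transcript at the locus of rtTA, differed by 0.14 (adjusted p = 0.288), with means of 15.9 and 14.2 FPKM.

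Over the days within a gate, none of the 4 factors changed by the test, with the arm as a term. Per day, Pou5f1 differed by -0.13, Sox2 by -0.07, Klf4 by -0.09 and Myc by -0.11 in Thy1+SSEA1- cells, with adjusted p of 0.101 to 0.29. There 3 of 4 had an unadjusted p under 0.05, as did 25.5% of all genes, and 2.1% of genes passed. Without the day 4 library labelled Dppa2/4 whose Dppa2 was at the control level the 4 differences were -0.11, -0.06, -0.08 and -0.11, with adjusted p of 0.0702 to 0.314. In Thy1-SSEA1- cells Sox2 differed by 0.15 per day (adjusted p = 0.076) and the other 3 by -0.05 to 0.02 (adjusted p of 0.346 to 0.866, 2.77% of genes passed). In Thy1-SSEA1+ cells Myc differed by -0.32 per day (adjusted p = 0.0904) and Klf4 by -0.17 (adjusted p = 0.129), both at an unadjusted p under 0.05. No gene passed in that gate by limma (0%), and 3558, or 24.4%, had an unadjusted p under 0.05.

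Reads in and around the factor genes were not all theirs to assign. An antisense gene inside Pou5f1, RP23-38P5.15.1 (ENSMUSG00000093516, chr17:35509077-35510551, minus strand), shares 291 of its 494 exonic bases with Pou5f1 exons, 288 of them coding. Its FPKM was 0.243 to 0.355 times that of Pou5f1 in every OSKM library, with r = 0.996. No strand setting is stated in the sources used here, so reads of the 2 genes cannot be told apart. The row labelled Sox2ot (ENSMUSG00000090828), the name of a long noncoding RNA gene at the Sox2 locus, has another identifier than the Sox2ot of the annotation used here, so its extent was not compared with Sox2. It was at most 3.77 FPKM. In Thy1-SSEA1- cells it was 0.0735 to 3.77 FPKM in control and at most 0.142 in Dppa2/4 libraries, where 2 of 5 listed it at 0, and over the 13 strata it differed by -0.55 (SE 0.23, adjusted p = 0.0987). In the library labelled Dppa2/4 day 4 Thy1+SSEA1- it was 3.19, the highest of its gate. Pvt1, the noncoding neighbour of Myc, differed by -0.11 between arms (adjusted p = 0.483 by limma). Between GFP+ and Thy1-SSEA1+ cells it differed by -0.20 (adjusted p = 0.228). Myc fell in both comparisons, with a call near the threshold between arms. Tcf19, the neighbour of Pou5f1, fell by 0.53 in GFP+ against Thy1-SSEA1+ cells (adjusted p = 0.0289) and did not pass between arms (-0.27, adjusted p = 0.21).

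Genes most like each factor were found by Pearson's r of log2(FPKM + 1) over the 30 OSKM libraries among 17104 genes, libraries that share gates and arms. For Pou5f1, after the antisense gene, they were 1110002N22Rik (0.93), Eif4ebp2 (0.93), Lap3 (0.93) and Parp1 (0.93). For Sox2 they were Hic2 (0.96), Olig2 (0.96), 4930566F21Rik (0.96), Zyg11a (0.96) and Slc25a13 (0.96). For Klf4 they were D11Wsu47e (0.91), Surf6 (0.91), Xpo6 (0.90), Wdr77 (0.88) and Akap1 (0.88), and for Myc Bcor (0.89), Fam105b (0.89), Gm15648 (0.88), 4930429B21Rik (0.87) and Vipar (0.87). None of the 4 factors was among the nearest 5 genes of another.

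Related transcription factors were followed as lists between Thy1-SSEA1+ and GFP+ cells, a step in which 19.5% of all genes rose and 25.9% fell. Of 16 KLF relatives 14 were tested, 8 rose and 4 fell, with a median change of 0.39 against -0.06 over all genes. Klf2 rose by 2.11 (adjusted p = 0.00097), Klf8 by 1.62 and Klf5 by 1.60, where Klf2 and Klf5 are stem cell factors that overlap in function with Klf4. Of 12 names in the list of the MYC family and MAX network, 11 were tested, 3 rose and 3 fell, with a median of 0.01. Mycn, the Myc paralogue abundant in stem cells, rose by 2.04 (adjusted p = 0.00439), from 11.1 to 40.8 FPKM, and Mycl1 by 0.71, in the cells in which Myc fell. Mxd4, a Max partner that opposes Myc, fell by 2.08. Of 18 SOX relatives 7 were tested, Sox15 rose by 1.09, and Sox9, Sox5 and Sox13 fell, with a median of -0.42. Of 8 POU relatives 4 were tested, Pou2f1 rose by 0.61 (adjusted p = 0.0492) and Pou6f1 fell by 1.84.

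Genes known as targets of the factors were followed in the same way. Of 13 Oct4 and Sox2 target genes, all tested, 12 rose and 1 fell from Thy1-SSEA1- to Thy1-SSEA1+ cells, with a median of 1.72 against 0.01 over all genes. Of all genes 9.55% rose and 12.4% fell in that step. From Thy1-SSEA1+ to GFP+ cells 11 of the 13 rose and 1 fell, with a median of 1.89, where 19.5% of all genes rose and 25.9% fell. Dppa5a rose by 3.57, Zfp42 by 3.28 and Esrrb by 2.20 in the latter step. Several of these genes also serve as pluripotent markers, so the lists are not separate evidence. Of 22 Myc target genes, 12 rose and 1 fell in GFP+ against Thy1-SSEA1+ cells, with a median of 0.65, in the step in which Myc fell. Odc1, the first enzyme of polyamine synthesis, rose by 0.93, Polr1b, a subunit of RNA polymerase I, by 0.95, and Ccnd2, a cyclin, fell by 3.35.

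The same lists were compared between the arms. Of the 22 Myc target genes 8 fell and none rose in Dppa2/4 cells, with a median of -0.31 against 0.03 over all genes. Of all genes 7.75% were lower and 15.6% higher between the arms. Srm, which makes spermidine, fell by 0.90 (adjusted p = 0.00674), Nolc1 by 0.65 and Polr1b by 0.60, both of which act in ribosome production. Max fell by 0.36 (adjusted p = 0.00771) and Mxi1, which competes with Myc for Max, rose by 0.31, the 2 members of 11 tested in that list that passed. Of 13 Oct4 and Sox2 target genes, Trim28 fell by 0.75 and Fbxo15 by 0.90, Lefty1 rose by 1.53, and 10 did not pass, among them Nanog at -0.23 (adjusted p = 0.279). Of KLF relatives 2 of 14 rose and 2 fell, led by Klf15, which fell by 0.66, and Klf6, which rose by 0.56. Of SOX relatives 2 of 10 rose, Sox18 and Sox8, at means of at most 1.45 FPKM, and 3 fell, among them Sox21 by 0.66. Of POU relatives Pou4f1 rose by 1.27 and the other 3 tested did not pass.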

How the data were processed

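Poly(A) RNA of sorted MEF cultures was sequenced. Per the submitters' processing notes, TopHat2, Cuffdiff and the mm10 build were used. The deposited values are FPKM per gene, made by the authors. Versions, annotation, strand and library scaling are not given in the sources used here. Of 33 value columns 32 were used, and 1 that matched no sample was not used. Of the day 2 columns, the pair without a gate name was taken as the rtTA-MEF samples by elimination. Their titles give day 2, while day 1 of OSKM-rtTA stands in their descriptions. For control GFP+ cells of day 11 title and description name different gates, and the title was followed.

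Genes with at least 1 FPKM in at least 2 libraries of a fit were tested on log2(FPKM + 1) with limma 3.58.1 (R 4.3.3, eBayes with a trend, two-sided, tested on simulated data), blocked by stratum or by arm and day. Coordinates are from GENCODE vM21, in which 32914 identifiers matched. Depth was implied in 2001 long genes, and without counts no counting interval is given. Library profiles correlated at 0.727 to 0.961. Named were the 4 factors, the 5 genes most like each, the 3 genes of each list that changed most among those that passed, transcripts at or near the factor, cassette and rtTA loci, and Dppa2 and Dppa4. Other named members of short lists were chosen after their values were seen. Adgre1, Map2, Sox1, Sox4, Pou3f1 and Mycl had no row of their own under the symbol. The 4 genes were taken by symbol, not by value, but they and the lists were proposed with earlier results of these data known. Alternatives were another pseudocount, filter, scaling and variance model, no block, and libraries left out.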

Additional observations from a re-analysis of the deposited data

How the results depend on the processing

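Over all comparisons and alternatives, 648 values of single factors kept their side of the threshold and, where called, their direction, 33 lost the call and 7 gained it, and no called direction reversed. The number of factors lower with Dppa2/4 was 3, and it was 1 with no filter, 0 with no stratum block and 1 without the day 11 GFP+ control library. Leaving out 1 stratum in turn gave 1 to 4. The number higher in Thy1-SSEA1+ than in Thy1+SSEA1- cells was 2, and it was 0 with no filter, 1 with no block and 1 to 2 with a pair left out. Against Thy1-SSEA1- cells it was 2, and 1 with no block. The number lower in GFP+ than in Thy1-SSEA1+ cells, Pou5f1 aside, was 1, and 0 with no block. The number with a lower Dppa2/4 effect on days 8 to 14 than on days 2 and 4 was 0, and 0 to 2 with a stratum left out. The fits with no filter tested more genes, and the cause of the other changes was not tested. Fits without day 2, or without days 2 and 4, and ratios, correlations and counts of early strata that leave out the day 4 library with Dppa2 at the control level, were chosen after seeing the data. Beyond the blocks by stratum or by arm and day, no paired analysis was possible because the labels give no replicate numbers. With no read counts and no replicate cultures, depth and transduction set unknown limits on the low values of Sox2.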
